A study of Mus musculus with 15 samples.

Results

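The expression of 9 transcription factors that pattern the intestine along its length was described in the ileum of 15 mice. They were Gata4, Gata5, Gata6, Barx2, Onecut2, Cdx1, Cdx2, Hnf4a and Hnf4g, picked by name from the 17752 genes listed in at least 1 mouse, and 8 of the 9 passed the filter on low counts that left 14386 genes for testing. The study asked whether purified proanthocyanidins (PAC), polyphenol polymers of plants, alter gene expression in the gut, and whether the length of the polymer matters. Healthy female C57BL/6 mice (C57BL/6JOlaHsd in the methods), 8 weeks old per the labels and all on 1 purified diet, received water or grape PAC at 200 mg/kg by gavage every 2 days for 10 days, 5 mice per group, and 1 RNA library was made per mouse from intestinal tissue, which the methods give as ileum. The groups are named water, low PAC and high PAC here, after the sample titles. In the labels high PAC is a PAC of high molecular weight, and in the study's text the longer of the polymers given to mice is called medium.

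The adult small intestine keeps a map of its own length in the transcription factors of its epithelium. GATA4 is abundant in duodenum and jejunum and is lost towards the distal ileum, where its absence permits the bile acid transport genes of the ileum, while GATA6 and GATA5 are found along the whole small intestine. CDX1 and CDX2, relatives of the fly protein caudal, hold the identity of intestinal as opposed to gastric epithelium, and the nuclear receptors HNF4A and HNF4G together drive the genes of the absorptive enterocyte. Onecut2 is a cut-homeodomain factor linked to the duodenum, and Barx2 is a homeobox gene known mostly from muscle and epithelial development.

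In the GENCODE annotation of GRCm38, the build that matches the deposited mm10 values, the genes lie on 6 chromosomes. Gata4 (gene identifier 14463) lies at chr14:63198922-63271692 on the minus strand, Gata5 (14464) at chr2:180325133-180334699 on the minus strand and Barx2 (12023) at chr9:31846044-31913462 on the minus strand. Cdx2 (12591) lies at chr5:147300805-147307270 on the minus strand, Hnf4a (15378) at chr2:163506808-163572910 on the plus strand and Hnf4g (30942) at chr3:3508030-3658052 on the plus strand. Each value below is a value of the whole gene, over all its transcripts.

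Hnf4a was the most abundant of the 9 factors, and it is transcribed from 2 starts far apart in the gene, which the values per gene do not separate. Its promoters, and that of Cdx2, are shown because intestinal transcription factors are known to regulate one another, and because they place the 2 start sites whose transcripts are summed in the Hnf4a values. The sequences are from RefSeq (GRCm38.p6), read 5′ to 3′ on the strand of the gene, and lie within the 250 bases before a RefSeq start. The upstream Hnf4a sequence was shortened at its 3′ end, where another annotated transcript begins, and its last 3 bases lie in a GENCODE exon. The downstream Hnf4a sequence was shortened at its 5′ end to leave out an exon and ends at the start, as does that of Cdx2, whose last 21 bases lie in a GENCODE exon. Of the genes described here, Gata5, Cdx2 and Hnf4a were matched to the RefSeq promoters used. Capitals mark matches to AGATAA, a letter form of the GATA motif, or to GTTAAT, an arm of the HNF1 motif, which reads ATTAAC on the other strand.
Hnf4a upstream start, chr2:163506607-163506810, plus strand: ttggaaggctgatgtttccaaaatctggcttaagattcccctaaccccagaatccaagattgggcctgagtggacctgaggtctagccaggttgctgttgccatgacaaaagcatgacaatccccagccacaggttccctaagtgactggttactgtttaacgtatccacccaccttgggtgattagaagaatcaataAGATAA
Hnf4a downstream start, chr2:163546943-163547154, plus strand: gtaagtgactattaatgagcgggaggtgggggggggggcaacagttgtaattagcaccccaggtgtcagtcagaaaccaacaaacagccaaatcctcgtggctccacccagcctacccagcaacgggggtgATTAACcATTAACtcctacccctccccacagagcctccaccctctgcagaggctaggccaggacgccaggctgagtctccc
Cdx2 start, chr5:147307250-147307499, minus strand: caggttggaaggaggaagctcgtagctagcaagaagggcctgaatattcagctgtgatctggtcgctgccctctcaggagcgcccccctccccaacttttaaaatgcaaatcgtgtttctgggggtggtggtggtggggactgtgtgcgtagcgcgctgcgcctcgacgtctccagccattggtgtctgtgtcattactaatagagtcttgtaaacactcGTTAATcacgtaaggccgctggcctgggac
The upstream start of Hnf4a had an AGATAA match 52 to 47 bases before the RefSeq start, and its downstream start had 2 HNF1 arms, both on the opposite strand, at 81 to 76 and 74 to 69 bases. Cdx2 had an HNF1 arm at 30 to 25 bases, and Gata5 had no match. In the 250 bases before each start, on both strands, AGATAA was found at 9.99% of 32851 mouse starts, GTTAAT at 6.43%, the CDX motif TTTATG at 10.8% and the HNF4 motif CAAAGTNCA at 1.19%. No TTTATG or CAAAGTNCA was in the windows of Gata5, Cdx2 or Hnf4a. A match of this kind is a description of the letters and was not measured as binding in these mice.

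The libraries held between 15963086 and 17903886 expected counts, which are estimated read pairs per gene, and between 16138 and 16392 genes each. The tissue carried the markers of ileum. Fabp6, the bile acid binding protein of ileal enterocytes, had a mean of 5679 FPKM in water, and stomach and pancreas markers summed to at most 0.15 FPKM in any mouse. FPKM are fragments scaled by gene length and library size, so levels can be compared between genes. High PAC replicate 3 stood apart from the other 14 mice. Its FPKM summed to 677075 over all genes against 502110 to 573980 elsewhere, and 9 genes known as HNF4 targets summed to 1427 FPKM in it against 2493 to 3230 elsewhere. Differences of the factors from water and counts that rest on this mouse are given with and without it, as is the Cdx1 difference between the PAC groups.

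The levels of the factors differed widely. Averaged over the 15 mice, Hnf4a was at 267.4 FPKM, Hnf4g at 139.9, Cdx1 at 96.0, Cdx2 at 69.8, Gata5 at 48.9, Gata6 at 28.1, Barx2 at 3.98, Gata4 at 3.73 and Onecut2 at 0.033. Hnf4a was above Hnf4g in 15 of 15 mice, and the same held for Cdx1 over Cdx2, Cdx2 over Gata5, Gata5 over Gata6 and Gata6 over Barx2. The order of Hnf4g and Cdx1 held in 13 of 15 mice, and that of Barx2 and Gata4 in 9 of 15, so the last 2 were not separated by their spread. Among the GATA factors of these ileum samples Gata5 and Gata6 were therefore far above Gata4.

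The spread between mice differed as much as the level. Gata6 was the steadiest factor, with a coefficient of variation of 7.86% over the 15 mice and a highest value 1.27 times its lowest. Hnf4a varied by 10.2%, Cdx2 by 13.5%, Gata5 by 15.1%, Cdx1 by 15.4% and Hnf4g by 19.3%. Barx2 varied by 71.0% and ranged over 12.7-fold, and Gata4 varied by 108% and ranged over 32.5-fold, from 0.39 to 12.67 FPKM. The expected counts of Gata4 ran from 23 to 742 and those of Barx2 from 25 to 315, a range beyond counting error. For bulk tissue, fewer cells of a type and less RNA per cell cannot be told apart, and this holds for every value given here.

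**Figure D1:**
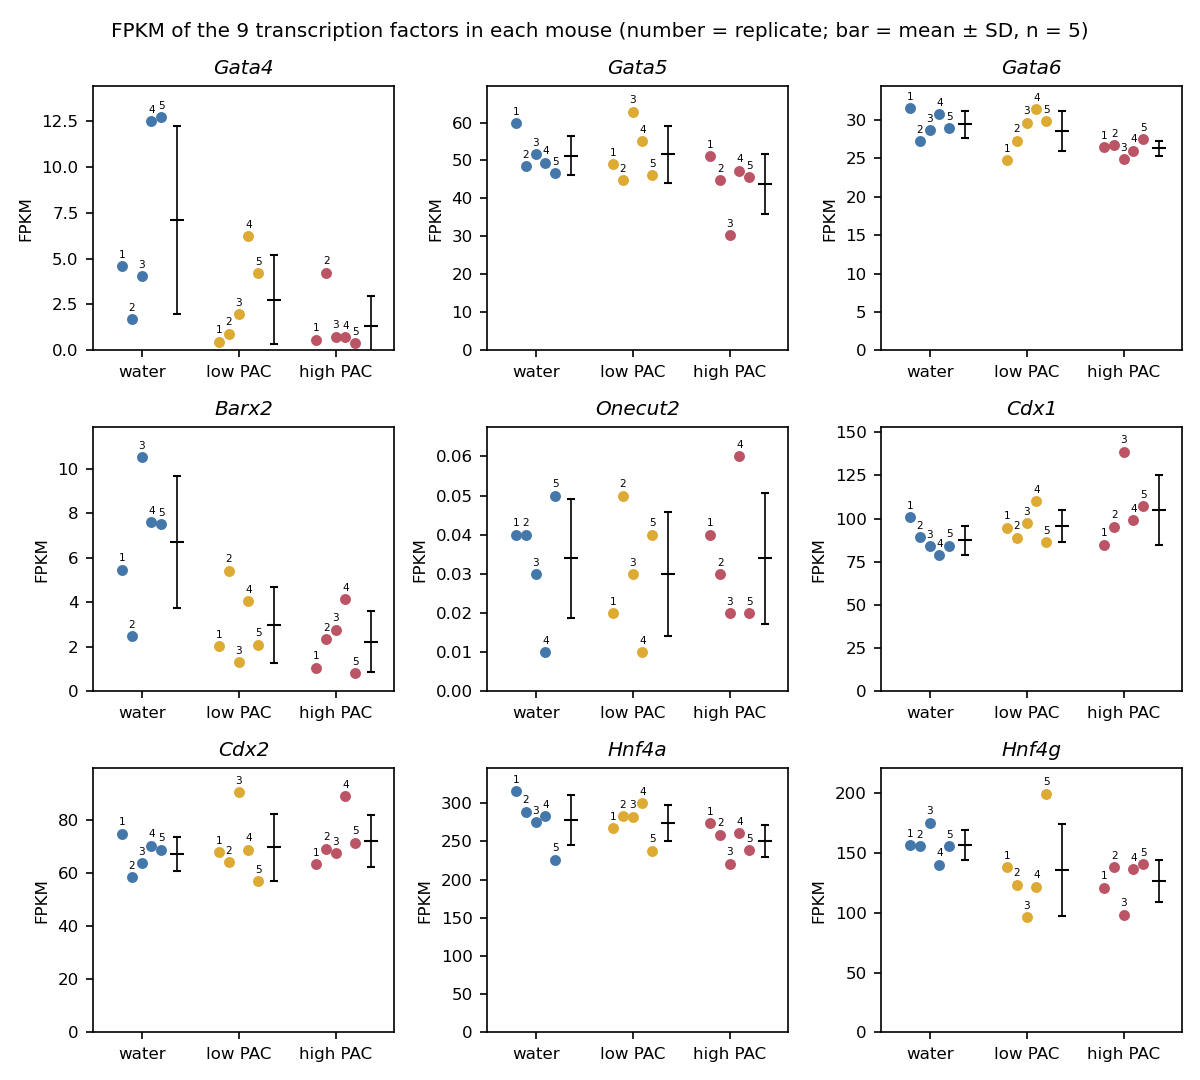
FPKM of each of the 9 transcription factors (vertical axes, starting at 0 and scaled separately for each gene) in the 5 water, 5 low PAC and 5 high PAC mice; points are mice, numbers are replicates and bars are means ± SD, of which the lower end for Gata4 in high PAC lies under 0 and is not drawn. Gata4 and Barx2 spread widely within each group, Gata6 spans only 24.79 to 31.55 FPKM, and high PAC replicate 3 has the lowest Gata5 and the highest Cdx1.

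Gata4, the factor of the proximal small intestine, was highest in water and lowest in high PAC. In water it was at 4.58, 1.69, 4.04, 12.46 and 12.67 FPKM in replicates 1 to 5, a mean of 7.09 ± 5.12 (SD, n = 5). In low PAC it was at 0.48, 0.91, 1.97, 6.23 and 4.19 FPKM, a mean of 2.76 ± 2.42. In high PAC it was at 0.58, 4.23, 0.75, 0.72 and 0.39 FPKM, a mean of 1.33 ± 1.63. The high PAC values thus lay under the lowest water value in 4 of 5 mice, with replicate 2 the exception and inside the water range, and low PAC values lay under it in 2 of 5. The difference of high PAC from water was -2.48 on the log2 scale (SE 0.76, 95% interval -4.10 to -0.85, edgeR, p = 0.00522, adjusted p = 0.211), and an exact two-sided permutation test of log2(FPKM + 0.1) gave p = 0.0238, where the smallest p that 5 against 5 mice can give is 0.0079. Without replicate 2 of high PAC the difference was -3.62, and without replicate 3 it was -2.30. Low PAC differed from water by -1.42 (SE 0.73, edgeR, adjusted p = 0.976, exact permutation p = 0.135), and high PAC from low PAC by -1.06 (95% interval -2.67 to 0.55, edgeR, adjusted p = 0.896). The last value rests on single mice, at -2.20 without replicate 2 of high PAC and -0.52 without replicate 4 of low PAC, with an adjusted p of at least 0.760 in edgeR whichever mouse was left out. Gata4 and Barx2 were among the genes that the study listed as changed in these same mice, so their direction here is not independent of that list.

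Gata6, which works beside GATA4 in the proximal intestine and without it in the ileum, (gene identifier 14465, chr18:11052064-11085635, plus strand) was at 31.55, 27.22, 28.66, 30.75 and 28.95 FPKM in water, 29.4 ± 1.73 on average. Low PAC had 24.79, 27.34, 29.66, 31.42 and 29.86 FPKM, and high PAC had 26.47, 26.70, 24.88, 26.02 and 27.55 FPKM, averaging 28.6 ± 2.59 and 26.3 ± 0.98. The difference is small, but the mice of a group were so alike that 4 of 5 high PAC values lay under the lowest water value. High PAC differed from water by -0.26 on the log2 scale (SE 0.07, edgeR, p = 0.00294, adjusted p = 0.193, exact permutation p = 0.0159). In limma on log2(FPKM + 0.1) the difference was -0.16 (adjusted p = 0.224). Relative to the mean of 11 epithelial genes on that scale it was -0.15 (limma, adjusted p = 0.365). The mean in high PAC was 0.92 times that in low PAC, a log2 difference of -0.16 (edgeR, p = 0.0438, adjusted p = 0.896, exact permutation p = 0.119).

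Gata5, the third GATA factor of the epithelium, was at 59.77, 48.51, 51.73, 49.45 and 46.71 FPKM in water, at 49.08, 44.90, 62.83, 55.12 and 46.10 in low PAC, and at 51.09, 44.79, 30.36, 47.34 and 45.61 in high PAC. The groups overlapped, and replicate 3 of high PAC was the lowest of the 15 mice. High PAC differed from water by -0.32 on the log2 scale (SE 0.13, edgeR, p = 0.0279, adjusted p = 0.291, exact permutation p = 0.0952), and by -0.18 without that mouse (adjusted p = 0.501). Low PAC differed from water by -0.05 (edgeR, adjusted p = 0.986). This difference turned positive in limma on log2(FPKM + 0.1), at 0.004, and was 0.02 relative to the epithelial genes on that scale.

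Barx2 was the other factor with a wide range. It was at 5.47, 2.48, 10.52, 7.62 and 7.52 FPKM in water, 6.72 ± 2.98 on average. It was at 2.03, 5.43, 1.32, 4.06 and 2.10 FPKM in low PAC, 2.99 ± 1.70 on average, and at 1.07, 2.36, 2.78, 4.16 and 0.83 FPKM in high PAC, 2.24 ± 1.36 on average. In both PAC groups 3 of 5 mice lay under the lowest water mouse, replicate 2, and all 5 lay under the water mean. High PAC differed from water by -1.67 on the log2 scale (SE 0.48, edgeR, p = 0.00287, adjusted p = 0.193, exact permutation p = 0.0238), and low PAC from water by -1.22 (SE 0.47, edgeR, p = 0.0191, adjusted p = 0.976, exact permutation p = 0.0476). DESeq2 gave high PAC against water an adjusted p of 0.0382 at a difference of -1.65, and no other factor passed a test at an adjusted p under 0.05 in any comparison or alternative. The PAC groups differed from each other by -0.46 (95% interval -1.47 to 0.56, edgeR, adjusted p = 0.908), and by -0.82 to -0.10 with 1 mouse left out, the extremes being without replicate 4 of high PAC and without replicate 2 of low PAC.

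The mice with the highest Gata4 and the highest Barx2 were not the same. Water replicate 3 had the highest Barx2 of all and a Gata4 value under the median of its group, and low PAC replicate 2 had the highest Barx2 of its group and the second lowest Gata4. With the group means subtracted, the correlation of Barx2 with Gata4 over the 15 mice was r = 0.352 (permutation p = 0.233, adjusted p = 0.978 over 36 pairs, rho = 0.314), and r = 0.092 after leaving out the 2 mice with the most extreme Barx2. Without subtraction of the group means it was r = 0.638. Among 12419 genes ranked by their likeness to Gata4, Barx2 stood at place 1126.

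The CDX factors, which set intestinal identity, averaged higher in high PAC than in water, at 105.0 ± 20.5 against 87.5 ± 8.33 FPKM for Cdx1 and 72.3 ± 9.84 against 67.4 ± 6.37 for Cdx2. Cdx1 (12590, chr18:61018862-61036199, minus strand) was at 100.77, 89.41, 83.96, 78.82 and 84.34 FPKM in water, at 94.82, 89.06, 97.21, 110.17 and 86.25 in low PAC, and at 84.92, 95.33, 138.68, 98.98 and 107.21 in high PAC. The highest value, in high PAC replicate 3, was well above all others. Cdx2 was at 75.05, 58.54, 63.81, 70.53 and 69.00 FPKM in water, at 68.11, 64.32, 90.72, 68.97 and 57.06 in low PAC, and at 63.55, 69.36, 67.71, 89.04 and 71.61 in high PAC. High PAC differed from water by 0.17 for Cdx1 (95% interval -0.08 to 0.41, edgeR, adjusted p = 0.494, exact permutation p = 0.0873) and by 0.01 for Cdx2 (-0.26 to 0.27, adjusted p = 0.984). Without replicate 3 of high PAC the Cdx1 difference was 0.09, and without replicate 1 of high PAC it was 0.27. The sign for Cdx2 turned when single mice were left out, water replicates 2, 3 and 5 or high PAC replicate 4.

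The HNF4 receptors were the most abundant of the factors, and the differences between groups were small beside their level. Hnf4a was at 315.62, 288.85, 274.72, 282.71 and 226.26 FPKM in water, at 267.24, 283.09, 282.11, 299.84 and 237.84 in low PAC, and at 273.82, 258.88, 220.80, 260.54 and 238.13 in high PAC. All 5 high PAC mice lay under the water mean and under 4 of the 5 water mice, and the overlap of the groups came from water replicate 5, under which only high PAC replicate 3 lay. Hnf4g was at 156.80, 155.70, 175.41, 140.32 and 155.77 FPKM in water, at 138.21, 123.50, 96.36, 122.00 and 199.61 in low PAC, and at 121.06, 137.98, 98.43, 136.61 and 140.59 in high PAC. For Hnf4g 4 of 5 mice in each PAC group lay under the lowest water mouse, while low PAC replicate 5 lay above the highest. High PAC differed from water by -0.25 for Hnf4a (SE 0.11, edgeR, p = 0.0382, adjusted p = 0.312, exact permutation p = 0.143) and by -0.40 for Hnf4g (SE 0.16, edgeR, p = 0.0225, adjusted p = 0.275, exact permutation p = 0.0159). Without high PAC replicate 3 these were -0.17 and -0.28. Low PAC differed from water by -0.27 for Hnf4g (SE 0.16, edgeR, adjusted p = 0.976), and by -0.439 to -0.165 with 1 mouse left out.

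Onecut2 (225631, chr18:64340020-64400987, plus strand) was near the lower limit of the data. It was at 0.04, 0.04, 0.03, 0.01 and 0.05 FPKM in water, at 0.02, 0.05, 0.03, 0.01 and 0.04 in low PAC, and at 0.04, 0.03, 0.02, 0.06 and 0.02 in high PAC, with 2 to 15 expected counts per mouse. It did not pass the filter on low counts, and a difference between groups was not detectable at this depth (high PAC against water, exact permutation p = 1.0). Of its relatives, Onecut3 averaged 0.118 FPKM in water and Onecut1 was not listed in any mouse.

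In all, 0 of the 8 tested factors had an adjusted p under 0.05 in edgeR in high PAC against water, where 0.0139% of all 14386 genes did. DESeq2 called 1, Barx2, and limma called 0. At an unadjusted p under 0.05, 6 of the 8 were lower in high PAC (Gata4, Gata5, Gata6, Barx2, Hnf4a and Hnf4g), beside 10.4% of all genes, and 0 were higher, beside 4.37%. This count rests in part on 1 mouse and on the scaling. Without high PAC replicate 3 it was 3 (Gata4, Gata6 and Barx2) beside 5.62% of all genes, and with limma on log2(FPKM + 0.1) the same 3 were lower, beside 3.67%, while Cdx1 was higher, beside 15.8%. Gata4 and Barx2 were lower at this threshold under each of the alternatives tried. In 0 of the 8 did the FPKM of the groups not overlap, beside 4.64% of all genes.

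In low PAC against water, which shares the water mice, 0 of the 8 factors had an adjusted p under 0.05 in edgeR, DESeq2 or limma, and 0.0% of all genes did in edgeR. At an unadjusted p under 0.05, 1 factor, Barx2, was lower, beside 2.21% of all genes, and 0 were higher, beside 1.4%. Groups that did not overlap were found for 0 of the 8 factors and 0.605% of all genes. In high PAC against low PAC, 0 of the 8 factors and 0.0% of all genes had an adjusted p under 0.05 in edgeR, and DESeq2 and limma called 0 factors. At an unadjusted p under 0.05, Gata6 was lower, beside 2.05% of all genes, 0 factors were higher, beside 1.84%, and groups did not overlap for 0 factors and 0.737% of all genes. The intervals of the log2 difference between the PAC groups were -2.67 to 0.55 for Gata4, -0.56 to 0.01 for Gata5 and -0.32 to -0.01 for Gata6. They were -1.47 to 0.56 for Barx2, -0.15 to 0.34 for Cdx1, -0.26 to 0.28 for Cdx2, -0.40 to 0.06 for Hnf4a and -0.47 to 0.20 for Hnf4g. The Cdx1 difference, 0.095, was -0.005 without high PAC replicate 3, and that of Hnf4g, -0.134, was 0.039 without low PAC replicate 5. The Gata5 difference, -0.274, ran from -0.318 to -0.151 with 1 mouse left out. At the dose that both groups received, none of the 8 factors differed between the lengths of polymer at an adjusted p under 0.05, the interval of Gata6 alone lay below 0, and for Gata4 and Barx2 the intervals are too wide to show that they acted alike.

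**Figure D2:**
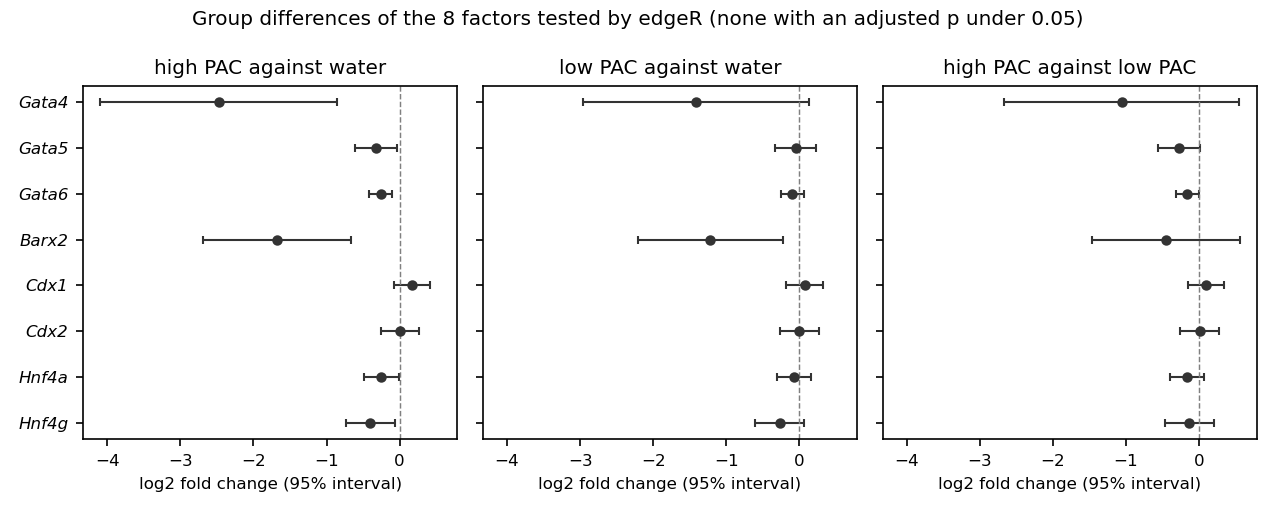
Log2 fold change of the 8 tested factors (horizontal axis) in the 3 comparisons of groups, with 95% intervals from edgeR; the dashed line is at 0. In high PAC against water 6 intervals lie below 0, those of Gata4 (-4.10 to -0.85) and Barx2 (-2.68 to -0.67) are the widest, and no adjusted p is under 0.05.

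Ratios between relatives in the same mouse do not depend on the scaling of the library, and were added after the values had been seen. Gata4 relative to Gata6 averaged 0.238 ± 0.171 in water, 0.0915 ± 0.0758 in low PAC and 0.0505 ± 0.0607 in high PAC. The high PAC mean rests on replicate 2, at 0.158, and was 0.0235 ± 0.00710 over the other 4 mice. The high PAC ratio differed from water by -2.33 on the log2 scale (exact permutation p = 0.0317, adjusted p = 0.381 over 12 comparisons), and by -2.85 to -2.03 with 1 of these 10 mice left out. The exact permutation p then ran from 0.0159, without replicate 2 of high PAC, to 0.0556, without any other high PAC mouse or without water replicate 4 or 5. Gata5 relative to Gata6 averaged 1.74, 1.81 and 1.66, Cdx1 relative to Cdx2 1.31, 1.39 and 1.47, and Hnf4g relative to Hnf4a 0.572, 0.508 and 0.507 in water, low PAC and high PAC. The high PAC means of the Gata5 and Cdx1 ratios rest on replicate 3, at 1.22 and 2.05. Without it they were 1.77 and 1.33, the difference of the Gata5 ratio from water turned from -0.08 to 0.03 on the log2 scale, and that of the Cdx1 ratio went from 0.15 to 0.03. None of these other ratios had an exact permutation p under 0.05 in any of their comparisons, and each adjusted p was at least 0.714 outside the Gata4 ratio in high PAC against water.

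Across mice, with the group means subtracted, Hnf4a and Gata5 varied together most closely of the 36 pairs of factors. Their correlation was r = 0.664 (permutation p = 0.00449, adjusted p = 0.162) and rho = 0.611 (permutation p = 0.0193, adjusted p = 0.696), with r = 0.725 without the 2 mice farthest from the median. Gata4 and Gata6 had r = 0.634 (permutation p = 0.0253, adjusted p = 0.455) and rho = 0.518 (permutation p = 0.0807), and r = 0.415 without the 2 farthest mice. Gata5 and Cdx2 had r = 0.502 (permutation p = 0.0995) and rho = 0.561 (permutation p = 0.0442, adjusted p = 0.727), and r = 0.280 without the 2 farthest mice. None of the 36 pairs passed the adjustment on either measure. The other pairs of paralogs ranged from r = 0.483 for Gata5 and Gata6 (permutation p = 0.0579, adjusted p = 0.695, rho = 0.529, r = 0.564 without the 2 farthest mice) over r = 0.179 for Cdx1 and Cdx2 and r = 0.043 for Gata4 and Gata5 to r = -0.239 for Hnf4a and Hnf4g (permutation p = 0.552, 0.884 and 0.379).

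The factors were also set beside scores of 5 marker lists, each the mean over a list of centred log2(FPKM + 0.1). Here the 2 farthest mice were those farthest from the median of the score, so a mouse extreme only in the factor stayed in. Gata4 went with 14 markers of the proximal small intestine, such as Apoa1 and Fabp1, at r = 0.656 (permutation p = 0.0162, adjusted p = 0.182 over 45 pairs) and rho = 0.636 (permutation p = 0.0228, adjusted p = 0.514), and r = 0.667 without the 2 farthest mice. Its correlation with 9 markers of the distal ileum was r = -0.416 (permutation p = 0.132, adjusted p = 0.684). Hnf4a went with the distal markers at r = 0.735 (permutation p = 0.00127, adjusted p = 0.0572) and rho = 0.743 (permutation p = 0.00446, adjusted p = 0.201), with r = 0.747 without the 2 farthest mice, and Gata5 at r = 0.564 (permutation p = 0.00368, adjusted p = 0.0828) and rho = 0.482 (permutation p = 0.0406). Cdx1 followed the epithelial score at r = 0.641 (permutation p = 0.00882, adjusted p = 0.132) and rho = 0.457 (permutation p = 0.0976). Cdx1 went against the mesothelial score at r = -0.529 (permutation p = 0.0289, adjusted p = 0.241, rho = -0.343, r = -0.599 without the 2 farthest mice) and against the smooth muscle score at r = -0.460 (permutation p = 0.0321, adjusted p = 0.241, rho = -0.307, r = -0.565 without them), and the part of these layers in the Cdx1 values was not tested. None of the 45 pairs passed the adjustment. On TMM-scaled CPM (counts scaled to the library total) Hnf4a with the distal markers did, at r = 0.798 and an adjusted p of 0.00495.

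**Figure D3:**
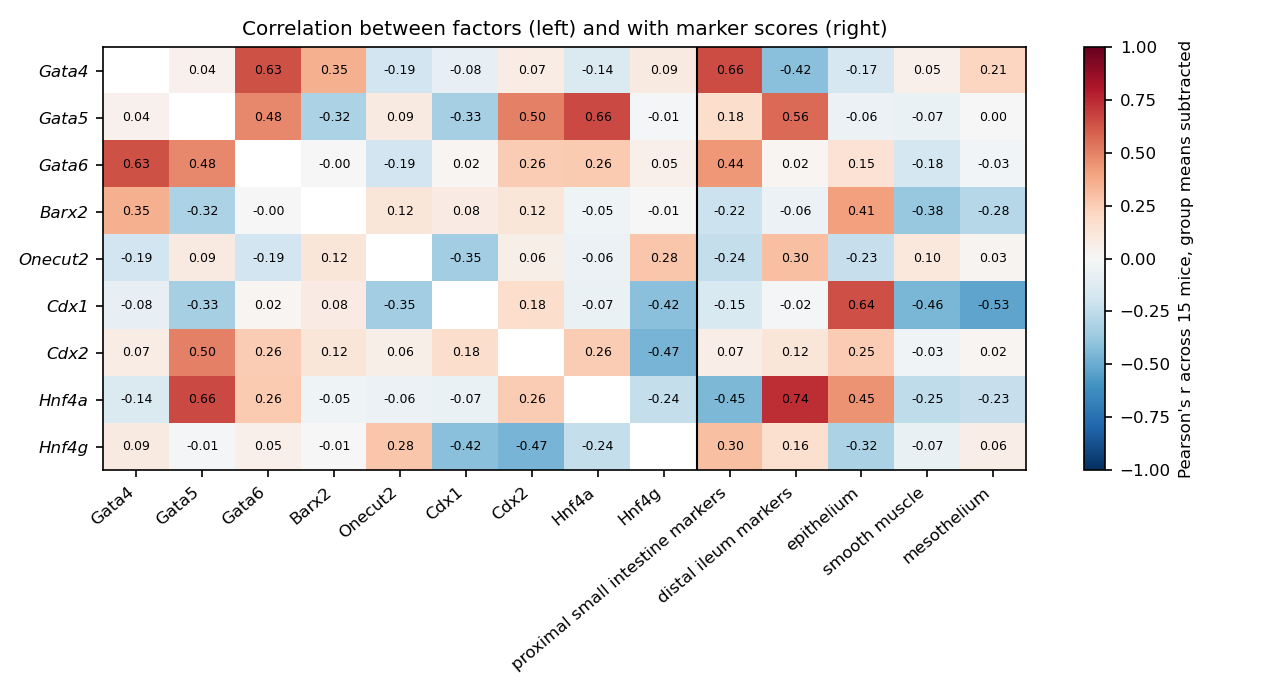
Pearson's r across 15 mice with group means subtracted, for each pair of factors (left of the black line) and for each factor with 5 marker scores (right of it); red is positive and blue negative, and each cell prints its value. Hnf4a with the distal ileum markers (0.74), Hnf4a with Gata5 (0.66) and Gata4 with the proximal markers (0.66) are the highest, and no adjusted p is under 0.05.

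**Figure D4:**
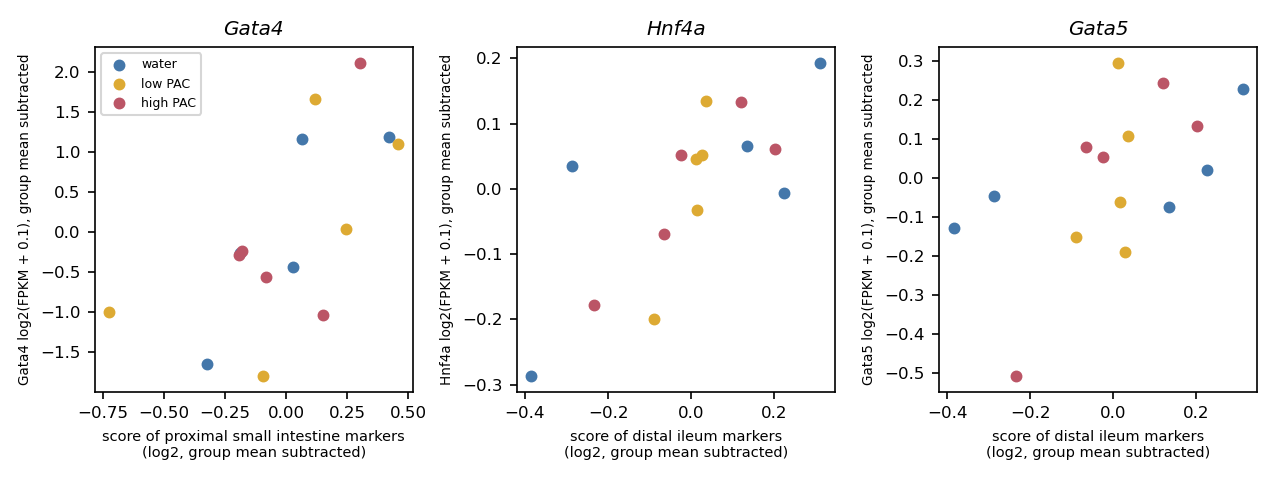
Factor level (vertical axis, log2(FPKM + 0.1) with the group mean subtracted) against a marker score (horizontal axis, log2 with the group mean subtracted) for Gata4 and the proximal markers, Hnf4a and the distal ileum markers, and Gata5 and the distal ileum markers; each point is 1 of 15 mice, coloured by group. The correlations are 0.656, 0.735 and 0.564, and the Gata5 point at the lower left is high PAC replicate 3.

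The lists themselves give the setting of these values in high PAC against water. Of the 14 proximal markers, 11 were lower and 6 of them had an unadjusted p under 0.05, beside 10.4% of all genes, with a median log2 difference of -0.51 beside 0.00 for all genes. In edgeR 0 of the 14 had an adjusted p under 0.05. Lct, the lactase of the brush border, was lowest at -1.78 (edgeR, adjusted p = 0.352) and Fabp1, a fatty acid binding protein, highest at 0.46. Their summed FPKM ran from 4783 to 7004 in water, 4027 to 6116 in low PAC and 4507 to 5452 in high PAC, so that the groups overlapped. The 9 distal markers had a median of -0.05, with Fabp6 at 0.35 and Clec2h at -0.47, and sums of 6099 to 9564, 8345 to 10210 and 8646 to 12600 FPKM. The highest sum was that of high PAC replicate 3, and the other high PAC mice were at 8645.5 to 10538.2. The low water sums were those of replicates 4 and 5, at 6385.2 and 6099.1, the mice with the highest Gata4. The part of the position along the gut from which a piece was taken was not tested.

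Genes known as targets of the factors were counted in the same way. Of 9 HNF4 targets all 9 were lower in high PAC than in water, 6 with an unadjusted p under 0.05, beside 10.4% of all genes, with a median of -0.36 and a range from Apob, the scaffold protein of chylomicrons, at -0.68 to Espn, an actin bundler of microvilli, at -0.21. Of 6 CDX targets all 6 were lower, 3 with an unadjusted p under 0.05, beside the same share of all genes, at a median of -0.28, from the sucrase-isomaltase gene Sis at -0.61 to the mucin gene Muc2 at -0.14. Without high PAC replicate 3 the medians were -0.19 and -0.13, and the counts were 4 of 9 and 1 of 6, beside 5.62% of all genes. None of these targets had an adjusted p under 0.05. In low PAC against water the medians were -0.16 and -0.11.

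Of 23 other transcription factors of the intestine that were tested, 17 were lower in high PAC than in water, 6 with an unadjusted p under 0.05, beside 10.4% of all genes, and 0 with an adjusted one in edgeR, at a median of -0.15. Prdm1, which marks the immature epithelium of the suckling gut, was lowest at -0.68 (edgeR, adjusted p = 0.133) and Ehf, an epithelial ETS factor, highest at 0.18. Without high PAC replicate 3 2 of the 23 were lower at an unadjusted p under 0.05, beside 5.62% of all genes, and 1 was higher, beside 5.28%. Pdx1, the factor of duodenum and pancreas, stayed under 0.5 FPKM in every mouse. Among relatives of the 9 factors, Gata3 had the lowest difference at -0.40 (edgeR, adjusted p = 0.271) and Zfpm2, a cofactor of GATA proteins, the highest at 0.34, at levels under 1 FPKM in each group.

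Markers of other layers of the gut wall also differed in level between the groups, none past the test. All 7 smooth muscle genes were higher in high PAC than in water, at a median of 0.42, from 0.25 for Smtn to 0.53 for Cnn1, with 0 unadjusted p under 0.05, and summed to 201.7 to 694.8 FPKM in water, 439.6 to 762.4 in low PAC and 514.0 to 848.5 in high PAC. The low water sums were those of replicates 1 and 3, at 232.9 and 201.7 FPKM, while the other 3 water mice, at 667.0 to 694.8, lay inside the high PAC range. All 5 mesothelial genes listed were higher, at a median of 0.90, from 0.14 for Upk1b to 1.22 for Bnc1, and summed to 6.99 to 19.1, 10.5 to 20.6 and 11.1 to 24.9 FPKM. The same 2 water mice had the lowest mesothelial scores of the 15 mice, at -1.70 and -1.66 with the group mean subtracted, and their Gata4 values, 4.58 and 4.04 FPKM, lay inside the range of the other water mice. Muc16 was not listed in any mouse. The 11 epithelial genes had a median of -0.07, with the highest difference for Krt18, at 0.18, and summed to 7995 to 9643 FPKM in water and 8289 to 9786 in high PAC. At an unadjusted p under 0.05, 2 of the 11 were lower in high PAC, beside 10.4% of all genes, Krt20 at -0.42 and Vil1 at -0.33 (edgeR, adjusted p = 0.194 and 0.290), and 2 were without high PAC replicate 3. Within groups Gata4 had r = 0.054 with the smooth muscle score and r = 0.214 with the mesothelial score (permutation p = 0.844 and 0.458), and the part of these layers in the differences between groups was not tested.

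Other cells of the wall were followed in the same way. All 6 genes of crypt and cycling cells were higher in high PAC than in water, at a median of 0.21, from 0.06 for Mki67 to 0.35 for Ascl2, and 1 of them, Smoc2 at 0.23, had an unadjusted p under 0.05, beside 4.37% of all genes. Without high PAC replicate 3, 5 of the 6 were higher. The 5 enteroendocrine genes had a median of 0.03, from -0.07 for Neurod1 to 0.23 for Pax6, with 0 unadjusted p under 0.05. The B cell genes of Peyer's patches, the lymphoid follicles of the ileum, varied widely between mice, summing to 8.03 to 162.8 FPKM in water, 8.34 to 80.4 in low PAC and 6.09 to 240.0 in high PAC. All 8 were lower in low PAC than in water, at a median of -1.26, and all 8 were higher in high PAC than in low PAC, at a median of 1.36, in both cases with 0 unadjusted p under 0.05. In high PAC against water their median was 0.07, from -0.16 for Pax5 to 0.48 for Ms4a1, and it was -0.42 without high PAC replicate 3. The part of these cells in the values of the factors was not tested.

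The genes most like each factor across the 15 mice, by Pearson's r of log2 CPM with group means subtracted over 12419 genes with a mean of at least 1 FPKM, are given as a description. For Gata4 they were Dnpep (0.923), Nr1i3 (0.922) and Anxa4 (0.907), for Gata5 Pias3 (0.945), Cabin1 (0.942) and Synpo (0.942), and for Gata6 Sphk2 (0.853), Cpt1b (0.846) and Ihh (0.841). For Barx2 they were the immediate early gene Egr1 (0.914), Fam118b (0.877) and the growth factor gene Hbegf (0.820). For Cdx1 they were Nfkbil1 (0.944), Mzt2 (0.939) and the epithelial keratin gene Krt18 (0.923), and for Cdx2 2510039O18Rik (0.907), Tmem82 (0.877) and Asb6 (0.863). For Hnf4a they were Rab7 (0.917), Mlx (0.893) and Mapkap1 (0.878), and for Hnf4g Bag4 (0.941), Gramd3 (0.914) and Edem3 (0.904). No factor was among the 3 nearest genes of another.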

How the data were processed

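RNA from the ileum of 15 mice was sequenced as 1 library per mouse. Per the study's methods, paired-end BGISEQ-500 reads were filtered by the authors with SOAPnuke and aligned with Bowtie2 to mm10, while the submitters' processing notes name HISAT, DESeq2 and mm10. The authors deposited an expected count per gene, an estimate that is not normalized, and the tool that made it is not given in the sources used here. The authors also deposited FPKM, scaled by gene length and mapped fragments, with 2 decimals and a lowest value of 0.01. A gene not in a mouse's file was set to 0.

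After rounding, the expected counts entered edgeR 4.0.16 in R 4.3.3 (TMM, filterByExpr, quasi-likelihood, 1 model of the 3 groups of 5 mice), with Benjamini-Hochberg adjustment over 14386 genes and a threshold of 0.05. The standard error was derived from the test statistic. DESeq2 1.42.0 and limma 3.58.1 served as alternatives and are named where used; every other adjusted p of a gene came from edgeR. The study's own test, NOISeq, was not used. For single factors, log2(FPKM + 0.1) was permuted exactly over the 252 splits of 10 mice, two-sided. Correlations used Pearson's r and Spearman's rho with 100000 permutations within groups. Depth was 15963086 to 17903886 expected counts per mouse. The tests were checked on simulated data. Python 3.11.15, scipy 1.17.1 and matplotlib 3.10.9 were used.

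The factors and gene lists were chosen with earlier results of these data known. All 9 factors are named. Of the other lists that are described, the tested genes with the highest and lowest difference in high PAC against water and defining markers are named (colon genes are not reported here), and the 3 genes most like each factor. Alternatives were other normalizations, filters, pseudocounts, tools and models, a reference to epithelial genes, a replicate block and leaving out each mouse. Ratios within families, also with 1 mouse left out, and counts of factors and lists without high PAC replicate 3, were added after seeing the data.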

Additional observations from a re-analysis of the deposited data

Results flagged for a closer look

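Each factor was screened in each group for 1 mouse whose gap to its nearest neighbour exceeded 0.71 of the range of the 5 mice, in 27 groups in all. Chance flags about 1 in 20 such groups, and 2 of the 27 were flagged. Gata4 in high PAC replicate 2 was at 4.23 FPKM, with the other 4 mice of the group between 0.39 and 0.75 FPKM. Gata5 in high PAC replicate 3 was at 30.36 FPKM, with the other 4 mice between 44.79 and 51.09 FPKM. This second mouse is the library that stood apart in its summed FPKM.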

How the results depend on the processing

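In high PAC against water, edgeR called 2 of all genes and 0 of the 8 factors. DESeq2 called 112 genes and 1 factor, Barx2 (adjusted p = 0.0382). Limma called 9 genes on log2(FPKM + 0.1) and 9 on log2(FPKM + 1), a fit of only the 2 groups called 4, and differences relative to the epithelial genes 4. Leaving out 1 mouse gave 2 to 11 genes, with 11 without high PAC replicate 2, 4 without water replicate 2 and 3 without high PAC replicate 3. In low PAC against water, where edgeR called 0 genes (520 at an unadjusted p under 0.05), DESeq2 called 2 and leaving out 1 mouse 0 to 1, with 1 without low PAC replicate 2. In high PAC against low PAC no alternative called a gene.

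The split of genes at an unadjusted p under 0.05 in high PAC against water was 628 higher and 1500 lower with TMM, 1505 and 816 with upper-quartile normalization, 2269 and 528 with limma on log2(FPKM + 0.1), 2016 and 299 relative to the epithelial genes, and 759 and 808 without high PAC replicate 3. The median log2 difference of all genes was 0.002 with TMM, 0.09 with limma on log2(FPKM + 0.1) and 0.103 relative to the epithelial genes on that scale. Of 552 differences of single factors under the alternatives, 523 kept the sign of the reported value, and the other 29 were of Cdx1, Cdx2, Gata5 and Hnf4g with adjusted p of at least 0.713. With 1 mouse left out the Gata4 difference in high PAC against water was -3.62 to -2.16 and that of Barx2 -2.04 to -1.44, and under the other settings they were -2.49 to -1.73 and -1.85 to -1.25. In high PAC against water the differences of Gata6 and Hnf4a were -0.16 and -0.14 in limma on log2(FPKM + 0.1). Relative to the epithelial genes on that scale they were -0.15 and -0.13.

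Between high PAC and water, mice with the same replicate number correlated at -0.216 to 0.445 (mean 0.149), beside -0.498 to 0.554 (mean -0.038) for different numbers. The means were 0.124 and -0.031 between low PAC and water, and -0.123 and 0.032 between the PAC groups. In each comparison the values of same numbers lay inside the range of different numbers. The numbers were used as names of mice, and the main tests did not pair them. With the replicate number as a block, 0 factors and 2 genes were called in high PAC against water and 0 of each in the other comparisons.

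Of pairs of factors, 0 of 36 passed the adjustment, against 2 without subtraction of the group means (Gata4 with Gata6, Hnf4a with Gata5) and 0 to 1 with 1 mouse left out (Hnf4a with Gata5 without low PAC replicate 2). Of pairs with marker scores, 0 of 45 passed, against 1 on log2 CPM, 1 without subtraction of the group means (Gata4 with the proximal markers) and 0 to 3 with 1 mouse left out, with 3 without low PAC replicate 2 and 1 without water replicate 3 or 4. Only Onecut2, at 2 to 15 expected counts per mouse, was removed by the filter on low counts. The lowest counts of Gata4 and Barx2 were also small, at 23 and 25.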
